A study of Mus musculus with 35 samples.

Results

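The Slc25 family, the mitochondrial solute carriers, was followed in mouse N2a neuroblastoma cells after loss and re-expression of Chtop. Its members were taken as every gene in the deposited RPKM table whose symbol is Slc25a with a number and whose mean over the 12 total-lysate libraries was at least 0.5 RPKM (reads scaled to transcript length and library depth). This gave 39 of 47 Slc25a symbols, out of 54393 genes in that table. Read counts were available for 29 of the 39, among 9239 genes, and the other 10 had RPKM values alone. The members were thus chosen by their RPKM in total lysate, so levels are given below as a description with no test. The member just inside the limit was Slc25a35, at a mean of 0.768 RPKM, followed by Slc25a43 at 1.04 RPKM. Just outside lay Slc25a2 at 0.153 RPKM and Slc25a41 at 0.0992 RPKM, and the other 6 were between 0 and 0.0458 RPKM.

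All libraries came from N2a cells, a line from a mouse neuroblastoma, that carry a Flp-In site and the doxycycline-controlled transactivator rtTA. A FLAG-tagged Chtop cDNA under doxycycline control was present in each of 2 lines, without exon 5 in mEx5 and with exon 5 in pEx5, and the cDNA resists the Chtop siRNA. Rescue cells received Chtop siRNA and doxycycline, knockdown cells received Chtop siRNA without doxycycline, and control cells received a pool of non-targeting siRNAs without doxycycline. Doxycycline or plain medium was given at 24 h and cells were harvested at 72 h. Equal cell numbers were split into a total sample (20%) and nuclear and cytoplasmic fractions, with control material from 2 culture dishes and knockdown and rescue material from 3 dishes each. Each of the 18 groups of line, condition and fraction had 2 biological replicates, except the cytoplasmic pEx5 control, which had 1 library. No group received control siRNA with doxycycline, so in rescue cells the drug and the re-expressed protein cannot be told apart. Chtop is an RNA-binding partner of the TREX mRNA export complex, and the series asks how its loss, and each isoform, changes where transcripts are found in the cell.

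Slc25 proteins sit in the inner mitochondrial membrane, with a few in the outer membrane or in peroxisomes, and exchange metabolites, nucleotides, cofactors and inorganic ions between matrix and cytosol. They are made from nuclear genes, leave the nucleus as ordinary polyadenylated mRNAs, and reach the inner membrane through the TOM complex, the small TIM chaperones and the TIM22 complex. Growing tumour cells draw on several of them, among them the citrate carrier, which feeds cytosolic acetyl-CoA synthesis, and the aspartate/glutamate carriers of the malate-aspartate shuttle.

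The 4 carriers whose mRNA moved most in total lysate after knockdown were Slc25a30, Slc25a20 and Slc25a33, which fell, and Slc25a10, which rose. Their promoters are shown because the results turn on these genes and because 3 of them moved together. Each stretch of 300 bases lies around the RefSeq transcription start, most of it upstream, read 5′ to 3′ on the gene's own strand in build GRCm38.p6, and capitals mark motif matches on either strand. The places are chr14:75786988-75787287 (minus strand) for Slc25a30, chr9:108661886-108662185 (plus) for Slc25a20, chr4:149774218-149774517 (minus) for Slc25a33 and chr11:120491587-120491886 (plus) for Slc25a10.
Slc25a30: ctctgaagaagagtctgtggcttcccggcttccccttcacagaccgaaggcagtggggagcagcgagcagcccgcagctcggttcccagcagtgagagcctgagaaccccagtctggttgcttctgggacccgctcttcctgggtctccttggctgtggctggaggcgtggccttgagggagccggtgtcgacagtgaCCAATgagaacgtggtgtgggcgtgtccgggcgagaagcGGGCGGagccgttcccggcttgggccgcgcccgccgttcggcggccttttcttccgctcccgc
Slc25a20: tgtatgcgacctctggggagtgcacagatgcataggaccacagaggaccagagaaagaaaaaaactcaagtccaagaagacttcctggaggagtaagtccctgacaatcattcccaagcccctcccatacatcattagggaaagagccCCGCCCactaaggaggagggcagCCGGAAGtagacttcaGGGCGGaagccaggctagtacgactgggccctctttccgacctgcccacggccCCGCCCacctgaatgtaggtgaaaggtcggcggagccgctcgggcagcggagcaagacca
Slc25a33: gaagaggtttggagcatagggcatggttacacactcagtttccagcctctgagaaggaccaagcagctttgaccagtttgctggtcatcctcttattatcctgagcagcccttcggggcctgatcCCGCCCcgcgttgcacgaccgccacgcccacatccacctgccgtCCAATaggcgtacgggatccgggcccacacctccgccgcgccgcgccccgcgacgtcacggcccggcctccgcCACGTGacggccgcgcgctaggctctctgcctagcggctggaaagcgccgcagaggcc
Slc25a10: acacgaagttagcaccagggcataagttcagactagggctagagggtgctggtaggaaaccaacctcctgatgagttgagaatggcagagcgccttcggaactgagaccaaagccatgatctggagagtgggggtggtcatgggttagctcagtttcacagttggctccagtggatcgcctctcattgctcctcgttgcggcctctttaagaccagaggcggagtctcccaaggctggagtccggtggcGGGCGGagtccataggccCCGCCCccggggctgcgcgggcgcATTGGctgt
The motifs searched were the CCAAT box (CCAAT), the GC box (GGGCGG), an NRF1 site (GCGCATGC), the cyclic AMP response element (TGACGTCA), the E-box (CACGTG), an ETS site (CCGGAAG) and a nuclear receptor core site (AGGTCA). No marked matches overlap in these 4 stretches. Slc25a30 held 1 CCAAT box and 1 GC box, Slc25a20 held 3 GC boxes and 1 ETS site, Slc25a33 held 1 CCAAT box, 1 GC box and 1 E-box, and Slc25a10 held 1 CCAAT box and 2 GC boxes. A promoter of this length was found for 30 of the 39 members. A GC box was in 27 of these 30 (90%), against 35.9% of 27025 mouse promoters. A CCAAT box was in 15 of 30 members (50%) against 37.9% of all promoters, an ETS site in 6 (20%) against 9.12%, and an E-box in 5 (16.7%) against 7.24%. The cyclic AMP element was in 1 member (3.33%) against 1.88%, the nuclear receptor site in 3 (10%) against 16.04%, and the NRF1 site in 0 of 30 against 2.81%. These matches describe letters in a window and were not tested. The 27025 promoters were not limited to genes expressed in these cells, as the members were, so the shares compare unlike sets. The carriers that fell and the one that rose shared the GC box.

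Counts per library summed to 20652832 to 36102129 in total lysate, 11681781 to 28705620 in nuclei and 19478702 to 40105458 in cytoplasm. Chtop itself stood at 188, 214, 289 and 197 CPM (counts scaled to library size) in rescue total lysate, 33.2, 34.0, 22.2 and 19.4 CPM in knockdown and 141, 139.6, 136 and 125 CPM in control, so the 3 conditions did not overlap there. The log2 fold change of Chtop after knockdown was -2.36 in total lysate, -2.63 in cytoplasm and only -0.84 in nuclei. Nuclear Chtop stood at 58.1 to 71.8 CPM in knockdown and 95.0 to 127 CPM in control. Per-library values are always given in the order mEx5 replicates 1 and 2, then pEx5 replicates 1 and 2. Of the labelled cell type's markers, Phox2a (233 RPKM), Hand2 (230 RPKM), Stmn2 (312 RPKM), Chga (101 RPKM) and Ret (99.2 RPKM) were high in total lysate. Th (0.55 RPKM) and Dbh (1.16 RPKM) were low, and Nefl (0.005 RPKM) and Nefm (0.03 RPKM) were lower still. Of 12 markers of other cell types Ptprc, Aqp4 and Mog were at 0 RPKM, while the epithelial keratin Krt8 (8.15 RPKM), the myelin gene Mbp (3.18 RPKM), the macrophage gene Cd68 (1.48 RPKM) and the astrocyte gene Gfap (0.373 RPKM) were detected, and the other 5 were below 0.1 RPKM. Among the 8 noradrenergic markers with counts, 4 were called lower and 0 higher after knockdown in total lysate. Of all genes there, 22.6% were called lower and 21.4% higher. The markers' median log2 fold change was -0.34, beside 0.01 for all genes. Transcripts encoded by the mitochondrial genome took 3.52 to 4.97% of counts in rescue total lysate, 3.38 to 4.84% in knockdown and 2.45 to 3.51% in control. The part of these shifts in the carrier results was not tested, and in bulk RNA fewer cells of a kind and less RNA per cell cannot be told apart.

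**Figure D1:**
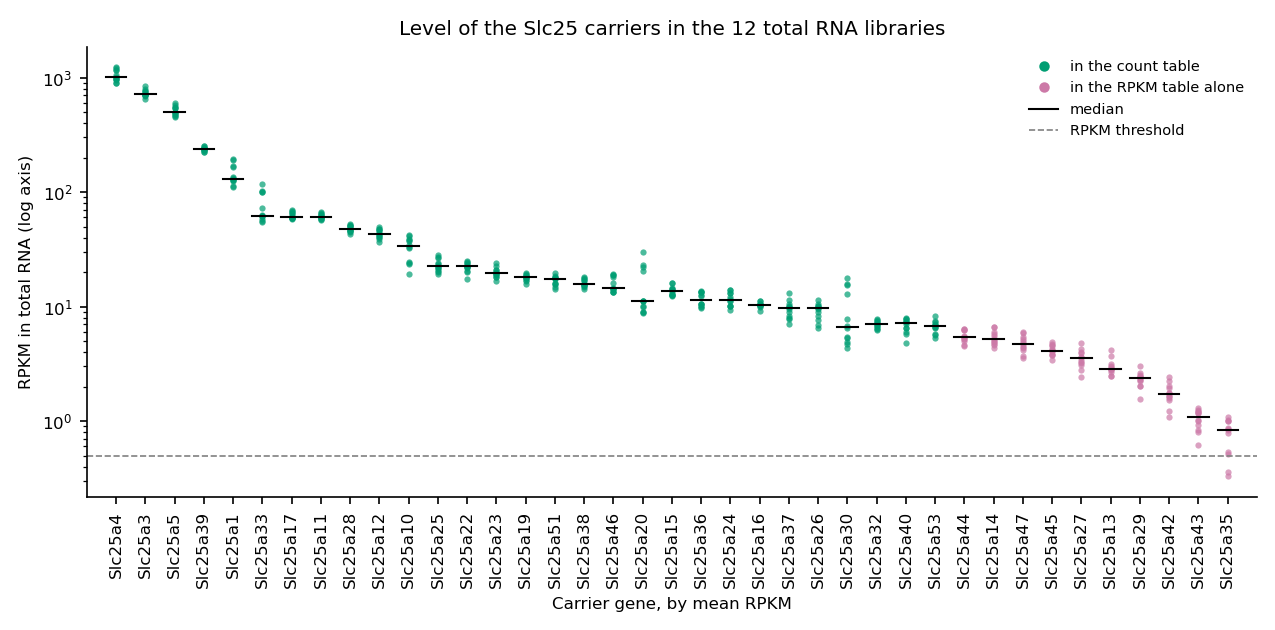
RPKM on a log axis for the 39 Slc25 members in the 12 total-lysate libraries, with a line at each median, the dashed line at the limit of 0.5 RPKM, and colours for members with counts and members with RPKM alone. Slc25a4, Slc25a3 and Slc25a5 lie above all other members, and Slc25a35 lies at the limit.

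Levels across the family spanned more than 3 orders of magnitude. Carriers of oxidative phosphorylation led it: Slc25a4, an ADP/ATP carrier, at a mean of 1042 RPKM (896 to 1225 over the 12 libraries), Slc25a3, the phosphate carrier, at 731 RPKM (648 to 836), and Slc25a5, the second ADP/ATP carrier, at 513 RPKM (452 to 603). Together they held 70.0% of the summed RPKM of the 39 members. Slc25a39, a glutathione carrier, followed at 238 RPKM, and Slc25a1, the citrate carrier, at 143 RPKM. In 4 pairs of close relatives 1 member was far above the other, unlike the ADP/ATP carriers Slc25a4 and Slc25a5. The glutathione carrier Slc25a39 stood at 238 RPKM beside 6.85 RPKM for its relative Slc25a40. The aspartate/glutamate carrier Slc25a12 (aralar) stood at 43.4 RPKM beside 3.00 RPKM for Slc25a13 (citrin). The iron carrier Slc25a28 (mitoferrin 2) stood at 48.2 RPKM beside 9.55 RPKM for Slc25a37 (mitoferrin 1), and the pyrimidine nucleotide carrier Slc25a33 at 75.8 RPKM beside 11.7 RPKM for Slc25a36. The ATP-Mg/phosphate carriers were closer, with Slc25a23 at 19.9 RPKM, Slc25a24 at 11.7 RPKM and Slc25a25 at 23.03 RPKM. Pseudogene copies can share reads with Slc25a5, so its values are less certain. The testis ADP/ATP carrier Slc25a31, at 0.0125 RPKM, fell below the limit.

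In total lysate the knockdown changed 15 of the 29 members with counts: 5 rose, against a background of 21.4% of all 9237 genes tested, and 10 fell, against a background of 22.6%. The members' share called in either direction was 51.7%, beside 43.9% of all genes, and their median log2 fold change was -0.09 beside 0.01 for all genes. The share that fell was above its background and the share that rose was below it, and neither difference was tested. In nuclei 4 rose (background 15.4%) and 7 fell (background 16%). In cytoplasm 4 rose (background 19.8%) and 6 fell (background 20.9%); with library totals alone in place of TMM scaling, 59.5% of all called genes were higher in cytoplasm, against 48.7% with TMM. A call is an adjusted p under 0.05, where p comes from the quasi-likelihood F-test of edgeR and is adjusted by Benjamini-Hochberg over all genes of the fit, and every later adjusted p on counts is of that kind. Slc25a30, Slc25a20, Slc25a33, Slc25a1 and Slc25a4 were called lower in all 3 fractions, and Slc25a10 was called higher in all 3. In these fits no member was called in opposite directions in different fractions, though with the replicate block described below Slc25a22 was called lower in total lysate and higher in nuclei, and 12 were called in none, among them the phosphate carrier Slc25a3 and the ADP/ATP carrier Slc25a5. The 29 members together took 0.363 to 0.381% of counts in knockdown total lysate and 0.388 to 0.405% in control, with no overlap. Their share was 0.244 to 0.269% in knockdown nuclei and 0.273 to 0.284% in control nuclei, also apart, but 0.343 to 0.369% in knockdown cytoplasm and 0.368 to 0.389% in control cytoplasm, which overlapped. Abundant members weigh most in this sum. In total lysate Slc25a4 had a mean of 1252 CPM after knockdown and 1456.5 CPM in control, and Slc25a3 706 and 637 CPM. There 13 of the 29 members had a positive log2 fold change, so the sum does not show a fall across the family.

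**Figure D2:**
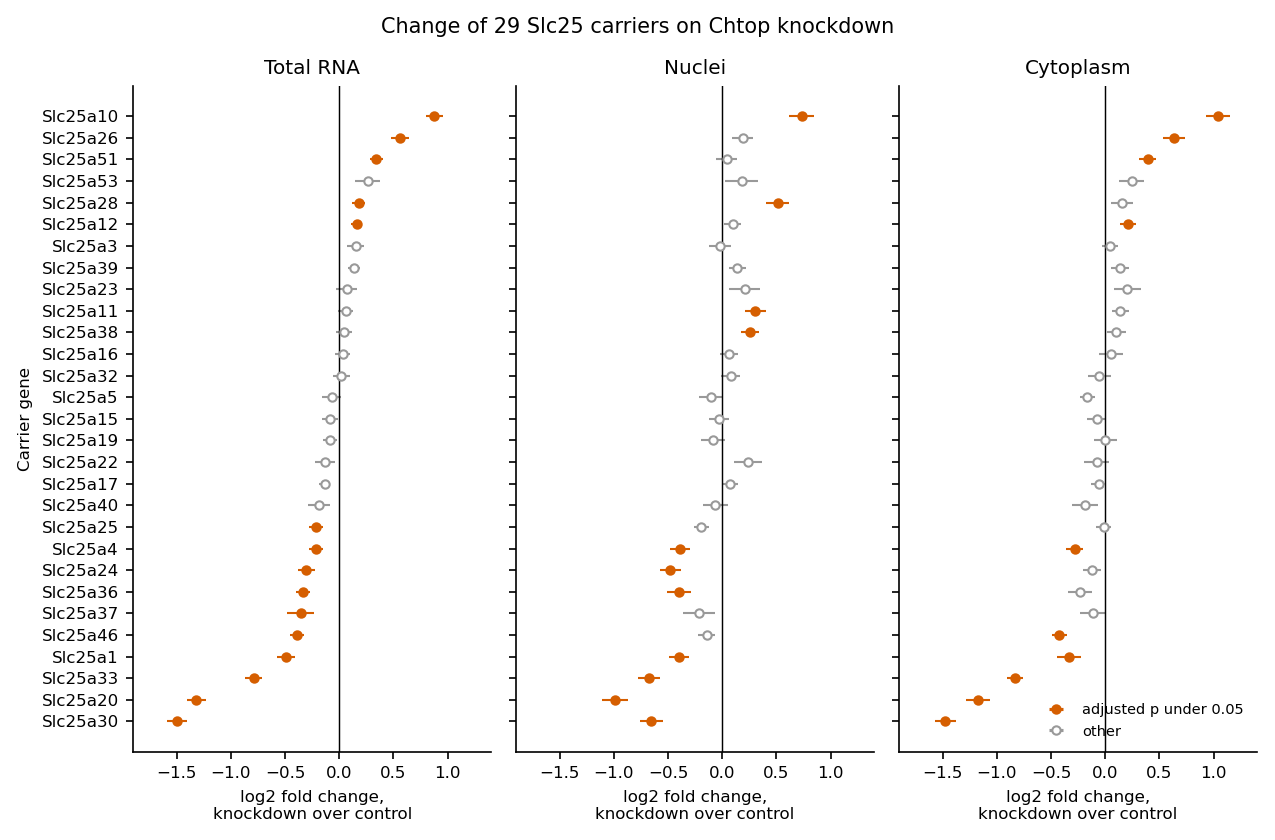
Log2 fold change of knockdown over control with its SE for the 29 members with counts, in panels for total lysate, nuclei and cytoplasm. Filled points have an adjusted p under 0.05, and Slc25a30, Slc25a20 and Slc25a33 lie at the low end and Slc25a10 at the high end of every panel.

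The same-numbered replicates deviated together in total lysate and in nuclei, so a fit with the replicate number as a block was also read there. In total lysate it called 8 members higher, against a background of 31.4% of all genes, and 12 lower, against a background of 31.4%. The 5 members gained were the phosphate carrier Slc25a3 (log2 0.15, block adjusted p = 0.018), the glutathione carrier Slc25a39 (0.13, 0.019) and Slc25a53, a carrier of unknown substrate (0.26, 0.032), which were higher, and the peroxisomal carrier Slc25a17 (-0.14, 0.027) and the glutamate carrier Slc25a22 (-0.13, 0.041), which were lower. In nuclei it called 6 higher (background 27.8%) and 9 lower (background 27.6%), adding Slc25a22 (0.23, block adjusted p = 0.0022) and the ATP-Mg/phosphate carrier Slc25a23 (0.21, 0.0099) among those higher and Slc25a25 (-0.19, 0.011) and Slc25a37 (-0.22, 0.0037) among those lower.

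Slc25a30 (ENSMUSG00000022003.7, chromosome 14, 75760117 to 75787037, minus strand, 10 exons), a carrier of the uncoupling-protein branch first described in kidney, fell most. In total lysate it stood at 12.9, 14.99, 10.2 and 11.2 CPM in knockdown libraries and at 34.9, 39.7, 29.6 and 34.5 CPM in control libraries. Every knockdown library was below every control library, and the fall was 2.83-fold (log2 -1.50, SE 0.09, adjusted p = 6.4e-06). The lines gave -1.41 (mEx5) and -1.58 (pEx5). In cytoplasm it stood at 19.4, 21.4, 17.6 and 14.7 CPM after knockdown, against 55.1 and 56.7 CPM in the mEx5 controls and 45.6 CPM in the lone pEx5 control (log2 -1.48, SE 0.10, adjusted p = 2.2e-06). In nuclei it stood at 14.2, 16.6, 15.5 and 16.2 CPM after knockdown, against 26.2, 29.2, 19.7 and 23.8 CPM in control (log2 -0.65, SE 0.11, adjusted p = 0.0015). The groups did not overlap in any fraction, and the nuclear fall was the smallest of the 3.

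Slc25a20 (ENSMUSG00000032602.6, chromosome 9, 108662088 to 108684641, plus strand, 9 exons) is the carnitine/acylcarnitine carrier that brings long-chain fatty acids into the matrix for oxidation. It stood at 11.5, 11.5, 11.7 and 12.98 CPM in knockdown total lysate and at 27.8, 25.7, 29.3 and 37.2 CPM in control. The groups lay far apart, with a 2.50-fold fall (log2 -1.32, SE 0.09, adjusted p = 9.0e-06). In nuclei it stood at 9.80, 7.94, 7.99 and 7.78 CPM after knockdown and 14.7, 15.3, 16.4 and 20.4 CPM in control, a log2 fold change of -0.99 (SE 0.12, adjusted p = 3.6e-04). In cytoplasm it stood at 10.5, 13.1, 12.8 and 13.5 CPM after knockdown and 27.3, 26.1 and 29.7 CPM in control, a log2 fold change of -1.17 (SE 0.11, adjusted p = 2.0e-05). The knockdown libraries were below the controls in each fraction.

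Slc25a33 (ENSMUSG00000028982.9, chromosome 4, 149744036 to 149774277, minus strand, 7 exons) carries pyrimidine nucleotides into mitochondria. In total lysate it stood at 91.0, 79.3, 82.0 and 90.3 CPM after knockdown and at 144, 140.5, 143 and 166 CPM in control. This was a 1.73-fold fall with no overlap (log2 -0.79, SE 0.08, adjusted p = 5.4e-05), and the log2 fold changes were -0.68 (SE 0.10, adjusted p = 9.3e-04) in nuclei and -0.83 (SE 0.07, adjusted p = 1.7e-05) in cytoplasm. The related pyrimidine nucleotide carrier Slc25a36 stood at 23.8, 23.9, 22.8 and 24.96 CPM after knockdown and 30.5, 30.8, 28.7 and 30.8 CPM in control, also apart (log2 -0.34, SE 0.06, adjusted p = 0.0023). In nuclei Slc25a36 stood at 36.03, 37.1, 33.5 and 45.5 CPM after knockdown and 55.5, 56.2, 39.2 and 50.7 CPM in control. These groups overlapped through the pEx5 line, where the log2 fold change was -0.19 beside -0.61 in mEx5, and the nuclear call (log2 -0.40, SE 0.11, adjusted p = 0.024) was lost, at 0.0532 to 0.0981, without either mEx5 control, either mEx5 knockdown, pEx5 control 2 or pEx5 knockdown 1. In cytoplasm Slc25a36 was not called (log2 -0.23, SE 0.11, adjusted p = 0.11). Whether counting used strand is not given in these sources, and exons of the opposite-strand gene Gm13068 overlap Slc25a33 over 281 bases.

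Among the tricarboxylic and dicarboxylic acid carriers, members moved in opposite directions. Slc25a10 (ENSMUSG00000025792.9, chromosome 11, 120491840 to 120499187, plus strand, 11 exons), which exchanges malate or succinate for phosphate, stood at 65.9, 71.6, 71.3 and 67.5 CPM in knockdown total lysate and at 40.2, 39.4, 39.4 and 31.7 CPM in control. All 4 knockdown libraries were above all 4 controls, with a 1.84-fold rise (log2 0.88, SE 0.08, adjusted p = 4.2e-05). It also rose in nuclei, at 64.6, 67.6, 62.1 and 59.9 CPM after knockdown and 38.2, 41.0, 38.4 and 35.4 CPM in control (log2 0.73, SE 0.12, adjusted p = 0.0015). In cytoplasm it stood at 65.2, 74.3, 64.0 and 64.9 CPM after knockdown and 29.5, 36.01 and 32.5 CPM in control (log2 1.04, SE 0.11, adjusted p = 4.9e-05). The groups were apart in both fractions. Antisense exons of Gm11788 overlap Slc25a10 over 228 bases.

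Slc25a1, which exports citrate, stood at 148, 176, 149 and 169.8 CPM in knockdown total lysate and 212, 239, 209.9 and 247 CPM in control, with no overlap (log2 -0.50, SE 0.08, adjusted p = 0.0012). Its log2 fold change was -0.40 in nuclei (SE 0.09, adjusted p = 0.0082) and -0.33 in cytoplasm (SE 0.11, adjusted p = 0.035). The cytoplasmic call was lost, at 0.0587 to 0.112, without mEx5 control 2, mEx5 knockdown 1 or pEx5 knockdown 1, and at 0.0720 with library totals alone. Slc25a11, the oxoglutarate/malate carrier of the malate-aspartate shuttle, was called in nuclei, at 57.7, 49.9, 49.0 and 43.7 CPM after knockdown and 41.0, 39.3, 39.8 and 41.4 CPM in control, with no overlap (log2 0.31, SE 0.09, adjusted p = 0.031). That call was lost, at 0.0657 to 0.107, without either mEx5 control, either pEx5 control, mEx5 knockdown 1 or pEx5 knockdown 1. In total lysate Slc25a11 had a log2 fold change of 0.06 (SE 0.07, adjusted p = 0.50). Its exons overlap those of Rnf167 on the opposite strand over 189 bases.

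The ADP/ATP and phosphate carriers with counts had 0 of 6 members called higher in any fraction (backgrounds 21.4%, 15.4% and 19.8% of all genes in total lysate, nuclei and cytoplasm). The block, however, called Slc25a3 higher in total lysate and Slc25a23 higher in nuclei. Called lower were 3 members in total lysate (background 22.6%), 2 in nuclei (16%) and 1 in cytoplasm (20.9%). The group's median log2 fold change was -0.14 in total lysate, -0.15 in nuclei and -0.07 in cytoplasm. Slc25a4 stood at 1354, 1261, 1238 and 1156 CPM in knockdown total lysate and 1488, 1473, 1447 and 1417 CPM in control. The groups did not overlap, but the fall was small (log2 -0.22, SE 0.07, adjusted p = 0.022), and the call was lost, at 0.0529 to 0.0771, without either mEx5 control, either pEx5 control, mEx5 knockdown 2 or pEx5 knockdown 2. In nuclei Slc25a4 had a log2 fold change of -0.39 (SE 0.10, adjusted p = 0.012) and in cytoplasm one of -0.28 (SE 0.08, adjusted p = 0.014), the last of which was lost, at 0.0562, without mEx5 knockdown 1. Its relative Slc25a5 stood at 378, 331, 345 and 323 CPM in knockdown total lysate and 396, 378, 373 and 299.9 CPM in control, which overlapped (log2 -0.07, SE 0.09, adjusted p = 0.54). The phosphate carrier Slc25a3 stood at 790.2, 667, 709 and 658 CPM after knockdown and 669.7, 651, 642 and 585 CPM in control, also with overlap (log2 0.15, SE 0.08, adjusted p = 0.16). Slc25a24, an ATP-Mg/phosphate carrier, stood at 22.2, 25.4, 21.9 and 22.2 CPM after knockdown and 28.8, 29.3, 27.8 and 27.6 CPM in control, with no overlap (log2 -0.31, SE 0.08, adjusted p = 0.011), and fell in nuclei as well (log2 -0.48, SE 0.09, adjusted p = 0.0040). The third lower member in total lysate was the ATP-Mg/phosphate carrier Slc25a25 (log2 -0.22, SE 0.07, adjusted p = 0.023). Slc25a25 stood at 56.4, 64.3, 66.6 and 69.2 CPM after knockdown and 67.8, 75.9, 75.0 and 79.7 CPM in control. Its groups overlapped, though within each line both knockdown libraries were below both controls.

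Of the 10 carriers of cofactors and nucleotides with counts, 2 rose and 2 fell in total lysate (backgrounds 21.4% and 22.6% of all genes), 0 rose and 2 fell in nuclei (15.4% and 16%), and 2 rose and 1 fell in cytoplasm (19.8% and 20.9%). Beside the pyrimidine carriers above, these were Slc25a26 and Slc25a51. Slc25a26, which imports S-adenosylmethionine, the methyl donor, stood at 14.2, 12.4, 12.2 and 12.7 CPM in knockdown total lysate and 9.78, 9.21, 8.34 and 7.73 CPM in control. The groups were apart (log2 0.56, SE 0.08, adjusted p = 6.0e-04), and the log2 fold change was 0.64 in cytoplasm (SE 0.10, adjusted p = 6.5e-04) and 0.19 in nuclei, where it was not called (SE 0.10, adjusted p = 0.16). Its exons overlap those of Lrig1 on the other strand over 144 bases. Slc25a51, which imports NAD+, stood at 33.6, 36.1, 34.4 and 32.97 CPM after knockdown and 27.8, 28.1, 25.8 and 26.5 CPM in control, again apart (log2 0.34, SE 0.06, adjusted p = 0.0014). It rose in cytoplasm (log2 0.39, SE 0.08, adjusted p = 0.0019) and had a nuclear log2 fold change of 0.04 (SE 0.10, adjusted p = 0.78). The fold changes of these 2 carriers in nuclei and cytoplasm are compared below by the test of the ratio.

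The iron carriers differed from each other. Slc25a28 in nuclei stood at 219.8, 232, 239 and 258 CPM after knockdown and 156, 197, 147 and 166 CPM in control. The groups did not overlap there (log2 0.51, SE 0.10, adjusted p = 0.0046). In total lysate it stood at 76.3, 69.1, 72.0 and 73.1 CPM after knockdown and 63.8, 69.9, 59.9 and 63.5 CPM in control, with overlap and a small called rise (log2 0.18, SE 0.06, adjusted p = 0.039). This call was lost, at 0.0501 to 0.1397, without mEx5 control 1, mEx5 knockdown 1, either pEx5 control, either pEx5 knockdown or pEx5 rescue 1, and at 0.0761 with all 35 libraries in 1 fit. In cytoplasm Slc25a28 was not called (log2 0.15, SE 0.10, adjusted p = 0.26). Slc25a37 stood at 26.1, 29.8, 28.3 and 35.0 CPM in knockdown total lysate and 34.4, 46.0, 32.1 and 40.5 CPM in control, with overlap (log2 -0.36, SE 0.13, adjusted p = 0.042). The lines gave -0.52 in mEx5 and -0.19 in pEx5. The call was lost, at 0.0586 to 0.167, without mEx5 control 2, mEx5 knockdown 1, either mEx5 rescue, pEx5 control 2 or pEx5 knockdown 1, at 0.0765 with library totals alone and at 0.0581 with all 35 libraries in 1 fit. Opposite-strand exons of Gm31748 overlap Slc25a37 over 381 bases.

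Slc25a46, an outer-membrane protein of the family that acts in mitochondrial fission and lipid exchange, stood at 34.4, 33.6, 31.8 and 31.8 CPM in knockdown total lysate and 43.6, 43.6, 43.7 and 41.4 CPM in control, with no overlap (log2 -0.39, SE 0.06, adjusted p = 0.0010). In cytoplasm it fell by 0.42 on the log2 scale (SE 0.07, adjusted p = 8.7e-04), and in nuclei it was not called (log2 -0.14, SE 0.08, adjusted p = 0.21). Exons of B930094E09Rik overlap it on the opposite strand over 383 bases. Slc25a12, the aspartate/glutamate carrier of the malate-aspartate shuttle, stood at 83.9, 82.3, 97.5 and 102 CPM in knockdown total lysate and 76.7, 72.3, 88.5 and 89.7 CPM in control. The groups overlapped because the pEx5 line was higher in both, and within each line both knockdown libraries were above both controls (log2 0.16, SE 0.05, adjusted p = 0.024). That call was lost, at 0.0536 to 0.0963, without mEx5 control 2, mEx5 knockdown 1, either pEx5 control or pEx5 knockdown 2. In cytoplasm its log2 fold change was 0.21 (SE 0.07, adjusted p = 0.035), lost at 0.0546 to 0.102 without either mEx5 control, either mEx5 knockdown or pEx5 knockdown 2. Of the 4 amino acid carriers with counts, 1 rose and 0 fell in each fraction, beside 21.4% higher and 22.6% lower among all genes in total lysate (nuclear backgrounds 15.4% and 16%, cytoplasmic ones 19.8% and 20.9%). The member was Slc25a12 in total lysate and cytoplasm, and in nuclei Slc25a38, a glycine carrier needed for haem synthesis (log2 0.26, SE 0.08, adjusted p = 0.039). Nuclear Slc25a38 stood at 17.5, 17.4, 22.5 and 20.3 CPM after knockdown and 14.3, 14.8, 18.7 and 17.1 CPM in control. Its groups overlapped, though within each line both knockdown libraries were above both controls. With the block Slc25a22 was also called, lower in total lysate and higher in nuclei.

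**Figure D3:**
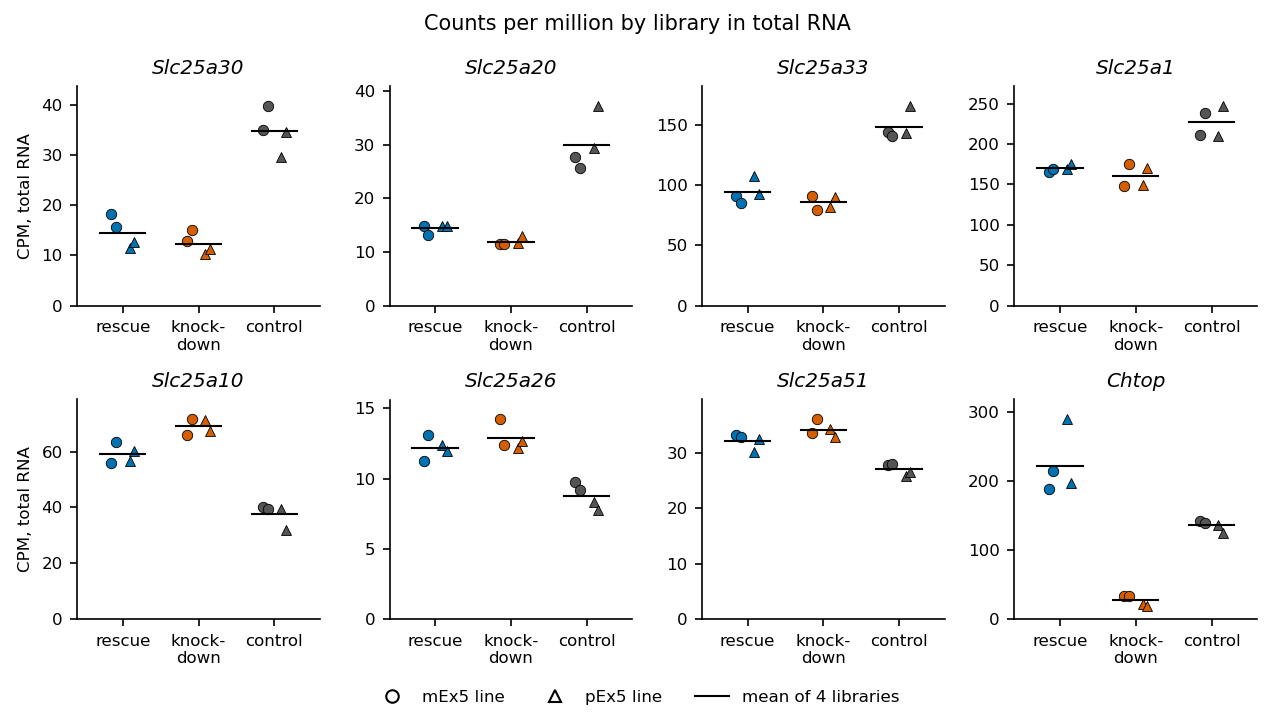
CPM in each total-lysate library for rescue, knockdown and control, left to right, for Slc25a30, Slc25a20, Slc25a33, Slc25a1, Slc25a10, Slc25a26, Slc25a51 and Chtop, with circles for mEx5, triangles for pEx5 and a line at the mean of 4 libraries. For the 7 carriers the rescue libraries lie with the knockdown libraries or between them and control, while Chtop in rescue lies above control.

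Re-expression of Chtop was set against knockdown to ask whether either isoform restores the mRNAs. Chtop was higher in rescue than in knockdown by 3.07 on the log2 scale in total lysate and higher than in control by 0.71. No Slc25 member was called between rescue and knockdown by edgeR in total lysate (lowest adjusted p 0.68, background 0.0217% of all genes), in nuclei (lowest 0.35, background 0.0108%) or in cytoplasm (lowest 0.51, background 0.0433%). With the replicate number as a block, the lowest edgeR adjusted p in total lysate was 0.0567, just above the threshold. At an unadjusted p under 0.05 there were 5 members in total lysate, beside 660 of all genes (7.15%), 1 in nuclei, beside 771 (8.35%), and 1 in cytoplasm, beside 886 (9.59%). DESeq2 called 0 members in total lysate (background 0.238%), 1 in nuclei (background 1.04%) and 0 in cytoplasm (background 0.227%). The 5 in total lysate were Slc25a20, at 14.8, 13.2, 14.8 and 14.8 CPM in rescue beside the knockdown values above (log2 0.27, SE 0.09), Slc25a30, at 18.2, 15.7, 11.5 and 12.6 CPM in rescue (0.23, SE 0.10), Slc25a10, at 55.9, 63.5, 56.5 and 60.1 CPM in rescue (-0.23, SE 0.08), Slc25a40 (0.28, SE 0.10) and Slc25a36 (0.20, SE 0.06), all with an adjusted p of 0.68. For Slc25a20 every rescue library was above every knockdown library and below every control library, and for Slc25a10 every rescue library was below every knockdown library and above every control library. For Slc25a30 the rescue and knockdown libraries overlapped. Outside total lysate, rescue and knockdown overlapped for Slc25a20 and Slc25a10 too. Nuclear Slc25a20 stood at 6.92 to 8.34 CPM in rescue and 7.78 to 9.80 CPM in knockdown (log2 -0.17). Its cytoplasmic values were 12.5 to 14.8 and 10.5 to 13.5 CPM (log2 0.12). Slc25a10 stood at 49.4 to 70.7 CPM in rescue nuclei and 59.9 to 67.6 CPM in knockdown nuclei. Its cytoplasmic values were 51.9 to 66.3 and 64.0 to 74.3 CPM.

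The member called by DESeq2 in nuclei was Slc25a28. It stood at 149, 174, 171 and 203 CPM in rescue nuclei and 219.8, 232, 239 and 258 CPM in knockdown nuclei, with no overlap, and the rescue range lay within or just above the control range of 147 to 197 CPM. The log2 fold change of rescue over knockdown was -0.45 (SE 0.10), with an adjusted p of 0.35 and, with the replicate number as a block, of 1.7e-04, where 4.07% of all genes were called lower. The difference between the rescues of the pEx5 and mEx5 lines was called for 0 of 29 members (edgeR lowest adjusted p 1.00, background 0% of all genes), and 0 members had an unadjusted p under 0.05 for it, beside 98 of all genes (1.06%), or were called by DESeq2, which called 0 genes in all. The differences ran from -0.37 to 0.22 on the log2 scale, with SEs of 0.10 to 0.25, and a p that misses the threshold does not show that the isoforms act alike.

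Against control, the rescue left 5 members higher (background 18.3%) and 8 lower (background 19%) in total lysate. This comparison shares its control libraries with the knockdown comparison, so its values only stand beside those above. The log2 fold changes of rescue over control were -1.27 for Slc25a30 (adjusted p = 2.0e-05), -1.05 for Slc25a20 (3.5e-05), -0.66 for Slc25a33 (2.2e-04), -0.42 for Slc25a1 (0.0039) and -0.30 for Slc25a46 (0.0050). They were 0.65 for Slc25a10 (adjusted p = 3.1e-04), 0.49 for Slc25a26 (0.0017), 0.25 for Slc25a51 (0.0082) and 0.17 for Slc25a12 (0.022). Slc25a4 (-0.25, adjusted p = 0.014) lost its call, at 0.0507, without pEx5 rescue 2. Slc25a24 (-0.24, adjusted p = 0.034) lost its call, at 0.0686 to 0.113, without any control library, mEx5 rescue 2 or pEx5 rescue 1, and at 0.0899 with library totals alone. Slc25a12 lost its call, at 0.0525 to 0.0886, without mEx5 control 2, either pEx5 control or the first rescue replicate of either line. With the replicate block 6 members were higher (background 29.6%) and 8 lower, the added one being Slc25a23 (log2 0.15, block adjusted p = 0.025).

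Nuclei and cytoplasm of control cells were compared next, to ask where carrier mRNAs reside. Both fractions came from the same split cells, but the fit did not pair them. The p-values of the ratios here and of the shifts below ignore that pairing. Of the 29 members 7 were higher in nuclei (background 33.8%) and 14 were lower there (background 36.1%), with a median log2 ratio of nuclei to cytoplasm of -0.22 beside -0.03 for all genes. Ratios are relative to the typical gene, since no spike-in is named. The 3 highest were Slc25a28 (log2 1.69, SE 0.12, adjusted p = 1.1e-08), Slc25a37 (1.11, SE 0.16, adjusted p = 1.7e-05) and Slc25a22, which imports glutamate (1.01, SE 0.15, adjusted p = 1.7e-05). CPM in this comparison were scaled jointly over both fractions, so they differ slightly from those above. Slc25a28 stood at 159, 201, 149 and 167 CPM in control nuclei and 54.6, 66.0 and 45.4 CPM in control cytoplasm. Both iron carriers were thus above their cytoplasmic level, and nuclear and cytoplasmic libraries of Slc25a28 did not overlap. The S-adenosylmethionine carrier Slc25a26 followed, with a log2 ratio of 0.90 (SE 0.10, adjusted p = 8.2e-07).

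At the other end lay the ADP/ATP carrier Slc25a5 (log2 -1.17, SE 0.10, adjusted p = 5.3e-08), Slc25a30 (-0.98, SE 0.11, adjusted p = 7.8e-07) and the glutathione carrier Slc25a39 (-0.93, SE 0.09, adjusted p = 1.6e-07). On the same joint scale Slc25a5 stood at 165, 152, 174 and 148 CPM in control nuclei and 371, 372 and 345 CPM in control cytoplasm, with no overlap. The 2 ADP/ATP carriers lay on the same side, with Slc25a4 at -0.83 (SE 0.09, adjusted p = 1.1e-06). The 7 members higher in nuclei had a median GC content of 56.0% and a median transcript of 2784 bases. The 14 members lower in nuclei had 48.2% and 1906 bases, the 8 uncalled members 48.1% and 3359 bases, and all 9239 genes 50.3% and 3026 bases. These are descriptions of small sets with wide ranges (GC 39.7 to 60.9% among the 7 and 40.7 to 59.7% among the 14) and were not tested.

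**Figure D4:**
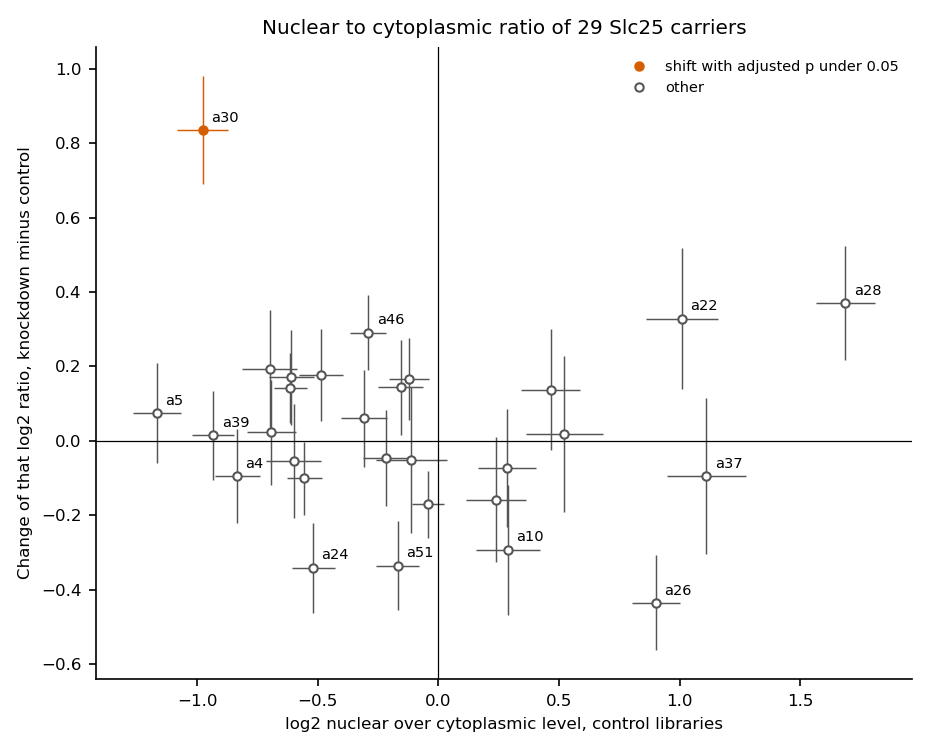
Log2 ratio of nuclei to cytoplasm in control cells (horizontal) and the change of that ratio after knockdown (vertical), each with its SE, for the 29 members with counts, labelled without the prefix Slc25. Slc25a30 lies at the top left, at -0.98 and 0.84, and Slc25a28 at the far right.

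The knockdown changed the nuclear to cytoplasmic ratio of 1 member, Slc25a30, upward (log2 shift 0.84, SE 0.15, adjusted p = 0.0041), against a background of 3.83% of all genes shifted upward, and of 0 members downward, against 1.31%. At an unadjusted p under 0.05 there were 6 of 29 members, beside 20.8% of all genes (1918 of 9239). DESeq2 called 2 members, Slc25a30 upward (background 5.98%) and Slc25a26 downward (background 2.94%). Scaling mattered for the background: of all genes called for this shift, 33.4% were higher with library totals alone and 74.5% with TMM, and the median of all genes moved by -0.0996. In the joint scaling of both fractions Slc25a30 stood at 14.7, 17.1, 15.9 and 16.6 CPM in knockdown nuclei and 26.6, 29.7, 20.0 and 23.9 CPM in control nuclei. In cytoplasm it stood at 18.99, 20.8, 17.3 and 14.4 CPM after knockdown and 53.3, 55.05 and 44.4 CPM in control. After knockdown the 2 fractions thus overlapped, whereas in control every cytoplasmic library was above every nuclear one. Both fractions fell, the cytoplasm more, and the shift was 0.62 in mEx5 and 1.05 in pEx5. The pEx5 value rests on the lone cytoplasmic pEx5 control library. In the authors' deposited table, the shift for Slc25a30 is 0.716 and its control ratio -1.15, both on the log2 scale.

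No other member's shift was called by edgeR in the same fit, and the count depended on the setting. With library totals alone 1 member was called higher (background 2.23%) and 3 lower (background 4.45%), with all 35 libraries in 1 fit 1 higher (background 5.27%) and 2 lower (background 3.25%), and with the replicate block 4 higher (background 13%) and 3 lower (background 9.63%), although same-numbered cytoplasmic libraries did not all deviate together. In the fit that called Slc25a30 alone, the next were Slc25a26 (log2 shift -0.44, SE 0.13, adjusted p = 0.060), Slc25a24 (-0.34, SE 0.12, adjusted p = 0.12), Slc25a51 (-0.34, SE 0.12, adjusted p = 0.12) and Slc25a28 (0.37, SE 0.15, adjusted p = 0.17). The difference between the rise of Slc25a26 in cytoplasm and in nuclei thus missed the threshold here, and passed it with DESeq2 (adjusted p = 0.043), library totals alone (0.024), the block (0.029) and all 35 libraries in 1 fit (0.020). That of Slc25a51 missed it here and with DESeq2 (0.075), and passed it with library totals alone (0.043), the block (0.029) and all 35 libraries in 1 fit (0.035). Rescue against knockdown called 0 shifts among the members (edgeR lowest adjusted p 1.00, background 0.0216% of all genes). For that contrast 3 members had an unadjusted p under 0.05, beside 2.7% of all genes, among them Slc25a28 (log2 shift -0.39, SE 0.14), and DESeq2 called 0 (background 0.0433%). In the authors' deposited table, a mark shows overlap with Chtop iCLIP, a map of where the protein touches RNA. It is set for 13 of the 29 members (44.8%) and 4484 of all 9239 genes (48.5%). Slc25a33, Slc25a1, Slc25a28 and Slc25a26 are marked, and Slc25a30, Slc25a20 and Slc25a10 are not. In total lysate 21.4% of all genes rose and 22.6% fell after knockdown. There 3 of the 13 marked members rose and 7 fell (median log2 -0.22). Of the 16 unmarked members 2 rose and 3 fell (median -0.08). In nuclei (backgrounds 15.4% and 16%) 2 marked members rose and 4 fell (-0.14), and 2 unmarked members rose and 3 fell (0.05). In cytoplasm (19.8% and 20.9%) 2 marked members rose and 4 fell (-0.01), and 2 unmarked members rose and 2 fell (-0.06). The marked members thus had the lower median in total lysate and nuclei and the higher one in cytoplasm. These differences were not tested.

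The 10 members without counts were compared by limma on log2(RPKM + 0.5), a scale that understates changes of low genes. In total lysate 1 was higher (background 17.5%) and 0 were lower (background 22.3%). In nuclei 2 were higher (background 12.2%) and 0 lower (18.9%), and in cytoplasm 4 were higher (background 17%) and 0 lower (20.4%). The one in total lysate, Slc25a35, a carrier of unsettled substrate, stood at 0.79 to 0.87 RPKM after knockdown and 0.33 to 0.54 RPKM in control. Its control mean of 0.438 RPKM is below the limit of the selection, which it passed through the knockdown and rescue libraries, so its difference is no support (log2 0.52, SE 0.14, limma adjusted p = 0.017). Exons of Rangrf overlap it on the opposite strand over 545 bases. With the replicate block 3 members were higher in total lysate (background 24.2%) and 1 was lower (background 29.5%). These were, beside Slc25a35, the branched-chain amino acid carrier Slc25a44 (log2 0.26, limma adjusted p = 0.055 and, with the block, 0.0038), the coenzyme A carrier Slc25a42 (0.32, 0.11 and, with the block, 0.032) and citrin, Slc25a13 (-0.31, 0.0501 and, with the block, 0.030).

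In nuclei Slc25a47, a carrier best known from liver, stood at 15.1 to 17.9 RPKM after knockdown and 10.4 to 13.3 RPKM in control, with no overlap (log2 0.52, SE 0.14, limma adjusted p = 0.020). Its cytoplasmic levels were 2.93 to 3.24 RPKM after knockdown and 2.21 to 2.74 RPKM in control, so its RPKM in nuclei was above that in cytoplasm in all libraries of both conditions. Slc25a42 in nuclei stood at 3.68 to 4.39 RPKM after knockdown and 1.63 to 2.78 RPKM in control, also apart (log2 0.76, SE 0.22, limma adjusted p = 0.030). The Slc25a47 call was lost, at 0.0605 to 0.0711, without mEx5 control 1, mEx5 knockdown 1, pEx5 control 2 or pEx5 knockdown 1. The Slc25a42 call was lost, at 0.0595 to 0.0980, without any knockdown library or replicate 1 of either control, and at 0.0567 with no filter on low values.

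In cytoplasm Slc25a44 stood at 5.97 to 7.30 RPKM after knockdown and 4.38 to 5.49 RPKM in control, with no overlap (log2 0.39, SE 0.09, limma adjusted p = 0.012). Slc25a29, a carrier of basic amino acids, stood at 2.48 to 3.14 RPKM after knockdown and 1.69 to 2.21 RPKM in control (log2 0.47, SE 0.13, limma adjusted p = 0.023), and Slc25a27, an uncoupling-protein relative of brain, at 2.38 to 2.68 RPKM and 1.56 to 2.37 RPKM (log2 0.36, SE 0.11, limma adjusted p = 0.030). Both sets of groups were apart, those of Slc25a27 barely. The fourth was Slc25a35, at 0.71 to 1.11 RPKM after knockdown and 0.28 to 0.48 RPKM in control. Its control mean there, 0.413 RPKM, is again below 0.5 RPKM, so this difference is no support either. The Slc25a27 call was lost, at 0.0518 to 0.0833, without mEx5 control 1, either mEx5 knockdown or either mEx5 rescue. The Slc25a29 call was lost, at 0.0633 to 0.0688, without mEx5 control 1 or mEx5 knockdown 1. The Slc25a35 call was lost, at 0.0516 to 0.0924, without mEx5 control 1, either mEx5 knockdown or pEx5 knockdown 2, and in total lysate, at 0.0532 to 0.0589, without mEx5 control 2 or pEx5 knockdown 1. Slc25a14, Slc25a43 and Slc25a45 were called in no fraction.

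Genes that work with the carriers were counted in the same way. The backgrounds of genes called higher and lower apply to each list that follows: 21.4% and 22.6% for total lysate, 15.4% and 16% for nuclei, and 19.8% and 20.9% for cytoplasm. Of 13 genes of the TIM22 import route, 3 rose and 2 fell after knockdown in total lysate, shares near or below these backgrounds, with a median log2 fold change of 0.09. The small TIM chaperones Timm8b (log2 1.11, SE 0.23, adjusted p = 0.0043) and Timm8a1 (0.68, SE 0.16, adjusted p = 0.0066) and the TOM receptor Tomm22 (0.40, SE 0.12, adjusted p = 0.024) were higher. Tomm70a, the receptor for carrier precursors (-0.37, SE 0.06, adjusted p = 8.7e-04), and Agk, a TIM22 subunit and lipid kinase (-0.53, SE 0.10, adjusted p = 0.0021), were lower. In nuclei 2 rose and 2 fell, and in cytoplasm 3 rose and 3 fell. Among 13 enzymes of the shuttles and of citrate use, 1 rose and 8 fell in total lysate (median -0.30 beside 0.01 for all genes), 0 rose and 5 fell in nuclei, and 1 rose and 6 fell in cytoplasm. Among those that fell were Cs, Got1, Gpd2 and Me2, and the one that rose was Gpd1l (0.37), while Mdh1 (-0.03, adjusted p = 0.66), Mdh2 (0.06, 0.44), Idh2 (-0.12, 0.22) and Got2 (-0.09, 0.23) were not called. Acly, the ATP-citrate lyase, stood at -0.46 (SE 0.13, adjusted p = 0.016), cytosolic malic enzyme Me1 at -0.43 (SE 0.05, adjusted p = 1.9e-04) and cytosolic isocitrate dehydrogenase Idh1 at -0.84 (SE 0.07, adjusted p = 2.3e-05).

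Of 18 other mitochondrial membrane transporters, 2 rose and 8 fell in total lysate, 2 rose and 6 fell in nuclei, and 2 rose and 10 fell in cytoplasm. Mcub, a subunit of the calcium uniporter that lowers its conductance, had a log2 fold change of -0.91 (SE 0.10, adjusted p = 1.2e-04), and Mpc1, a pyruvate carrier subunit, one of -0.52 (SE 0.11, adjusted p = 0.0037). Among the 3 family relatives whose symbols do not begin with Slc25, the uncoupling protein Ucp2 was lower in each fraction, at -0.72 in total lysate (SE 0.08, adjusted p = 1.2e-04), -0.80 in nuclei and -0.59 in cytoplasm, and the others were not called. Of 90 solute carriers of other families, 14 rose and 34 fell in total lysate, 11 rose and 23 fell in nuclei, and 16 rose and 21 fell in cytoplasm. Their median log2 fold change in total lysate was -0.14, beside -0.09 for the Slc25 members.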

How the data were processed

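Poly(A) RNA-seq libraries (35) of total lysate, nuclei and cytoplasm were used. The submitters' processing notes name mm10, DESeq2 and Salmon 0.14.1. The authors deposited whole-number counts for 9239 genes and RPKM for 54393 genes, with no other normalization of the counts. How the 9239 genes were chosen and whether counting used strand are not given in the sources used here. The authors' deposited table of log2 ratios of nuclei to cytoplasm, with iCLIP marks, was only quoted. In the RPKM table, 1 column with no labelled sample was not used. Gene positions and transcript features came from GENCODE M21, and promoters from RefSeq.

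Counts were tested with edgeR 4.0.16 in R 4.3.3 (filterByExpr, TMM, robust quasi-likelihood, 1 term per group of line, condition and fraction, lines averaged), with Benjamini-Hochberg adjustment over all genes of the fit. The SE is the log2 fold change divided by the root of F. CPM uses TMM library sizes. RPKM of the members without counts was tested with limma 3.58.1 on log2(RPKM + 0.5) for genes with a mean of at least 0.5 RPKM in the fit. The lone cytoplasmic pEx5 control was assumed to vary like the other groups. Alternatives were DESeq2 1.42.0, its size factors, library totals, no filter, a replicate block, all 35 libraries in 1 fit, another pseudocount and each library left out. The code was tested on simulated data.

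Members, lists and tests were chosen with earlier results of these data known. Named in full were the called members with the largest knockdown changes (up to 8 in total lysate, then up to 5 in each fraction), the 3 highest and 3 lowest ratios of nuclei to cytoplasm, members called for a shift, and the 3 highest levels. Slc25a25, Slc25a38, members called only with the block and the next members in the shift or rescue comparisons were named after their values were seen.

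Replicate numbers come from the labels. Deviations of same-numbered libraries from their group means correlated at 0.358 to 0.804 in total lysate (15 pairs) and 0.537 to 0.732 in nuclei (15 pairs), all over 0.1, and at 0.0349 to 0.660 in cytoplasm, where 7 of 10 pairs were over 0.1. The numbers were taken to pair libraries in total lysate and nuclei. No 2 libraries of a group were as alike as sampling noise would make them. The labels call the replicates biological, and p-values measure the spread between them.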

Additional observations from a re-analysis of the deposited data

Results flagged for a closer look

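In groups of 4 libraries, a library was marked when its gap to the nearest other as a share of the group's range exceeded Dixon's 95% limit. Of 58 groups of carrier and condition 9 were marked. The limit marks about 1 in 20 groups of independent draws from 1 population. These groups pool 2 lines and replicates that deviate together, and they share libraries across carriers. That rate therefore does not apply, and the 9 marks are only pointers to libraries. Of the 9, 3 were the pEx5 control replicate 2 in total lysate, at 166 CPM for Slc25a33 (others 140.5 to 144), 31.7 CPM for Slc25a10 (others 39.4 to 40.2) and 41.4 CPM for Slc25a46 (others 43.6 to 43.7). Without any 1 library the calls of these 3 carriers held in total lysate. In total lysate Slc25a20 stood at 12.98 CPM in pEx5 knockdown replicate 2 (others 11.5 to 11.7), Slc25a36 at 28.7 CPM in pEx5 control replicate 1 (others 30.5 to 30.8) and Slc25a24 at 25.4 CPM in mEx5 knockdown replicate 2 (others 21.9 to 22.2). In nuclei the mEx5 knockdown replicate 1 stood at 61.8 CPM for Slc25a33 (others 52.8 to 54.2) and 9.80 CPM for Slc25a20 (others 7.78 to 7.99). In cytoplasm Slc25a10 stood at 74.3 CPM in mEx5 knockdown replicate 2 (others 64.0 to 65.2).

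The knockdown effect on Slc25a30 differed between fractions by the test of the difference itself, with a log2 shift of 0.84 (SE 0.15, edgeR adjusted p = 0.0041).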

How the results depend on the processing

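The number of members called stayed within 1.5 times its value under the alternatives tried, with these exceptions. Rescue against knockdown in nuclei gave 0 calls, but 1 (Slc25a28, lower) with DESeq2, with the replicate block and with all 35 libraries in 1 fit. The knockdown shift gave 1 call, but 2 with DESeq2, 4 with library totals alone (1 higher, 3 lower), 3 with all 35 libraries in 1 fit and 7 with the replicate block (4 higher, 3 lower). Slc25a30 was called in each. The rescue shift gave 0 calls and 1 (Slc25a28) with the replicate block, although same-numbered cytoplasmic libraries did not all deviate together. Members with RPKM alone gave 1 call in total lysate and 4 with the replicate block, and 2 in nuclei and 1 with no filter. In cytoplasm the block changed 1 call among the 29 members (Slc25a5, log2 -0.17, block adjusted p = 0.043), and between control fractions it gave 22 in place of 21.

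With each library left out in turn, calls ranged from 10 to 15 (knockdown, total), 8 to 11 (nuclei), 7 to 10 (cytoplasm), 10 to 13 (rescue against control) and 20 to 23 (nuclei against cytoplasm). They stayed at 0 for rescue against knockdown in total lysate and nuclei, the line difference and the rescue shift. They were 0 to 2 for rescue against knockdown in cytoplasm (2, Slc25a16 and Slc25a22, without pEx5 knockdown 2) and 1 to 2 for the knockdown shift (2, with Slc25a26, without nuclear pEx5 rescue 1). For members with RPKM alone they were 0 to 2, 0 to 2 and 1 to 4 in the 3 fractions. The lone cytoplasmic pEx5 control could not be left out of fits that use it. Over 68 results on single members, 80 of 948 such runs and 6 of 387 other runs lost the call, and 0 reversed. Results for Slc25a25 and Slc25a38 were not among these 68. The cause of these differences was not tested. On the log2 scale the median SE was 0.08 for knockdown in total lysate and 0.13 for the knockdown shift.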
